A study of Mus musculus with 16 samples.

Results

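The genes described here are the 5 cytokine genes of the type 2 cluster on mouse chromosome 11 that mast cells can transcribe: Il3, Il4, Il5, Il13 and Csf2. They were chosen by name, with earlier results of these data known, and all 5 were present among the 39179 genes counted. Il4 and Il13 encode the cytokines that drive IgE production and mucus and airway responses in allergy. Il5 encodes the growth factor of eosinophils, Csf2 encodes GM-CSF, a growth and activation factor of granulocytes and macrophages, and Il3 encodes interleukin 3, a growth factor of mast cells and basophils. In T helper 2 cells and mast cells the cluster is known to be transcribed after receptor signals that raise calcium and activate NFAT, AP-1 and NF-kB factors, with GATA factors setting which cells can use it. Glucocorticoids are known to reduce the output of these genes.

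The samples were 16 RNA-seq libraries from bone marrow derived mast cells (BMMCs), which are cultured mast cells grown here for 4 weeks from the marrow of male C57BL/6 mice aged 8 to 10 weeks, in medium holding stem cell factor and IL3. The PEP+/+ cells were wild type and the PEP-/- cells were mutant for the PEST-domain-enriched tyrosine phosphatase, which Ptpn22 encodes; the design of the allele is not given in the sources used here. All cells, controls included, had received IgE for 3 h (at 0.05 µg/ml in the labels, while the study's text states another dose), which loads the high-affinity IgE receptor. In each genotype the IgE cells had no other treatment, the IgE DNP cells were then given the antigen dinitrophenol for 1 h at 200 ng/ml, the IgE DEX cells were given the glucocorticoid dexamethasone for 8 h at 100 nM, and the IgE DNP DEX cells were given both. Each of the 8 conditions had 2 samples. The study calls them biological replicates, but how many mice or cultures stood behind a sample is not given in the sources used here, so p-values measure only the spread between these samples.

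The genes lie within 664.3 kb (GRCm38, GENCODE M21), which also hold 9 other protein-coding genes. Il4 (chromosome 11, 53602982 to 53618669, minus strand) and Il13 (53631324 to 53634702, minus strand) are separated by 12.7 kb. Il5 (53720794 to 53725106, plus strand) starts 86.1 kb after Il13. A gap of 522.2 kb separates Il5 from Csf2 (54247271 to 54249667, minus strand), and Il3 (54265303 to 54267277, minus strand) lies 15.6 kb beyond Csf2. Counts were given per gene, so exons and untranslated regions (UTRs) could not be read separately. Their identifiers in the files were ENSMUSG00000000869 (Il4), ENSMUSG00000020383 (Il13), ENSMUSG00000036117 (Il5), ENSMUSG00000018916 (Csf2) and ENSMUSG00000018914 (Il3).

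The 250 bases before the RefSeq start (GRCm38.p6) of Il4, Il13 and Il5 are printed because Il4 and Il13 are adjacent genes that differed in their response, and because Il5 is the next gene of the cluster. Capitals mark the NFAT core GGAAA, the GATA forms AGATAA and AGATAG or TGATAA and TGATAG, the AP-1 motif TGANTCA and the TATA motif TATAAA, each read on both strands. Each is written on the strand of its gene.
Il4 (chr11:53618666-53618915, minus strand): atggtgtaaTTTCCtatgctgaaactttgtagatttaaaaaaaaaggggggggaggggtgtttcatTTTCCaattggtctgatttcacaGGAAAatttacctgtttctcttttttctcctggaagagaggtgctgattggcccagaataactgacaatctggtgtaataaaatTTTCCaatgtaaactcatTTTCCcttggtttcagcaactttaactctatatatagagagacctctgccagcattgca
Il13 (chr11:53634703-53634952, minus strand): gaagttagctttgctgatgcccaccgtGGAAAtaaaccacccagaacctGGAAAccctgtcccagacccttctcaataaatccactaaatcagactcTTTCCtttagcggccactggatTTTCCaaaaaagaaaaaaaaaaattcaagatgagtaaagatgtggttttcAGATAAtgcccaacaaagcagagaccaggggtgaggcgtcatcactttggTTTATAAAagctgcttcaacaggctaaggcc
Il5 (chr11:53720544-53720793, plus strand): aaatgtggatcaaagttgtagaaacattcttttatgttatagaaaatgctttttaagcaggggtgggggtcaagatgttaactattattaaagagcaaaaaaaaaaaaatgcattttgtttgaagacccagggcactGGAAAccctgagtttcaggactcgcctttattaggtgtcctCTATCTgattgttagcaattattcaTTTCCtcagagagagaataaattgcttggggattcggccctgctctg

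The NFAT core occurred 5 times in the Il4 window, 4 times in that of Il13, 2 times each in those of Il5 and Csf2 and 1 time in that of Il3. Of 32817 promoter windows of this length, 55.6% held at least 1. A GATA form occurred 1 time in each window except that of Il4, which had 0, against 26.6% of all windows. The TATA motif was found in the Il13 window only, as 2 overlapping matches on opposite strands, and in 12.4% of all windows. An NF-kB motif (GGG and CC with 5 bases between) matched at 2 overlapping places in the Il3 window and in 45.8% of all windows. Neither the AP-1 motif, held by 6.8% of windows, nor a glucocorticoid response element (GNACA and TGTNC with 3 bases between), held by 0.4%, was found in the windows of the 5 genes. The RefSeq start of Csf2 lies 232 bases upstream of the GENCODE one, so its window is not the sequence next to the GENCODE start.

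In cytokine mRNAs, copies of ATTTA in the 3′ UTR are known as AU-rich elements, which shorten the life of the mRNA. Csf2 had 9 copies in a 3′ UTR of 317 bases, or 28.4 per kb, against a median of 1.16 per kb over 20371 protein-coding genes. Il5 had 7 copies in 1092 bases, Il13 had 3 in 741 and Il3 had 1 in 101, in a GENCODE model whose 3′ end lies 218 bases short of the RefSeq one. Of all those genes 62.4% had at least 1 copy and 19.2% had 5 or more. The nonamer TTATTTATT, held by 7.0% of genes, occurred 4 times in Csf2 and 1 time in Il13. The 30-base windows with the most copies are shown for Csf2, which had the most copies per kb of these 4 genes, and for Il13, with each ATTTA in capitals.
Csf2 (bases 230 to 259 of the 3′ UTR): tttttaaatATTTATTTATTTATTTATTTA
Il13 (bases 303 to 332): atcttATTTAttatggttgtgtgttATTTA

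Libraries held between 8612531 and 22143526 counts on genes, with a median of 12814043.5. Ptpn22 checked the genotype labels: it had 11.3 to 175 CPM (the count relative to the library size as scaled by edgeR's TMM method) in the 8 PEP+/+ libraries and 0 to 3.03 CPM in the 8 PEP-/- libraries. All 12 mast cell markers were detected, at a summed 67870 to 115400 CPM, Kit and Fcer1a among them. T cell markers summed to at most 0.385 CPM, with 3 of the 7 at 0 in every library, Cd3e and Cd3g among these. Of 5 eosinophil markers the peroxidase gene Epx was at 0 throughout, 2 were tested and 0 called, and the sum was 11.4 to 18.8 CPM after IgE, 14.7 to 27.7 CPM after DNP, 5.41 to 11.2 CPM after DEX and 7.87 to 13.8 CPM after both. Of the basophil list (Mcpt8, Prss34, Cd200r3, Itga2) all 4 genes had reads and 3 were tested. Their sum moved with treatment, from 540 to 623 CPM after IgE to 750 to 883 CPM after DNP, 229 to 393 CPM after DEX and 432 to 479 CPM after both. Most of that sum was Cd200r3. Of 6 markers of group 2 innate lymphoid cells Thy1 was at 0 throughout and 3 were tested, and the sum was 5.73 to 23.6 CPM after IgE, 7.09 to 14.9 CPM after DNP, 16.02 to 47.9 CPM after DEX and 22.9 to 47.3 CPM after both. Il7r in that list moved with treatment, from 0.926 to 2.37 CPM after IgE to 4.05 to 6.4 CPM after DNP, 4.68 to 10.4 CPM after DEX and 14.0 to 25.7 CPM after both. Rora in the same list lay lower after DNP, at 1.58 to 6.89 CPM against 3.30 to 20.4 CPM after IgE, with overlapping ranges. It had 9.93 to 37.0 CPM after DEX and 5.87 to 20.5 CPM after both. Of 5 macrophage markers C1qa was at 0 throughout and 2 were tested, and the sum was 2.34 to 5.74 CPM after IgE, 5.85 to 8.42 CPM after DNP, 2.48 to 6.97 CPM after DEX and 4.12 to 7.12 CPM after both. Cd14 in that list was called higher after DNP in both genotypes, at 0.434 to 1.03 CPM after IgE and 2.46 to 4.68 CPM after DNP. The part of these cells in the cytokine results was not tested. In bulk samples fewer cells of a type and less RNA per cell cannot be told apart.

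Il13 had the widest range of CPM in the cluster, and Il4 stayed between 10.4 and 34.0 CPM. In PEP+/+ cells, Il13 had 5.14 and 5.03 CPM after IgE, 619.9 and 701 CPM after DNP, 1.24 and 0.294 CPM after DEX, and 24.35 and 38.35 CPM after both. In PEP-/- cells it had 3.73 and 3.29 CPM after IgE, 266 and 317 CPM after DNP, 0.467 and 0.407 CPM after DEX, and 11.3 and 17.9 CPM after both. Ordered by mean, the 8 conditions ran from PEP+/+ IgE DNP down to PEP-/- IgE DEX, and the samples of neighbouring conditions in that order did not overlap except between the DEX conditions of the 2 genotypes.

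Il4 had 12.0 and 17.5 CPM after IgE, 19.9 and 34.0 CPM after DNP, 10.4 and 12.9 CPM after DEX, and 22.1 and 17.7 CPM after both in PEP+/+ cells. The PEP-/- samples had 11.75 and 15.0 CPM after IgE, 15.75 and 21.02 CPM after DNP, 12.2 and 14.0 CPM after DEX, and 12.1 and 19.3 CPM after both. Ordered by mean, all neighbouring conditions overlapped. Replicate 2 was the higher sample in 7 of 8 conditions for Il4, and in 4 of 8 for Il13.

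Csf2 was read almost only in antigen-treated cells. In PEP+/+ cells the counts were 0 and 0 after IgE, 87 and 190 after DNP (8.23 and 21.4 CPM), 0 and 0 after DEX, and 5 and 19 after both (0.651 and 1.19 CPM). In PEP-/- cells they were 1 and 0, then 40 and 139 (3.28 and 7.65 CPM), then 0 and 0, and then 2 and 2 (0.156 and 0.190 CPM). Within each genotype the DNP samples lay above all others, and the samples given both lay between the DNP samples and the rest. A count of 0 allows up to 3 counts, which is 0.126 to 0.391 CPM per library; such limits cover counting error only.

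Il5 and Il3 were near the limit of detection. Il5 had 6 and 11 counts after DNP in PEP+/+ cells, 11 and 11 in PEP-/- cells, 1 count in a PEP+/+ sample given both agents, and 0 in every other sample. Il3, whose protein was supplied in the medium, had 2 and 3 counts after DNP in PEP+/+ cells, 0 and 6 in PEP-/- cells, 1 count in a PEP+/+ sample given both, and 0 elsewhere. All reads of both genes thus came from cells given antigen. Il3 failed the filter on low counts and was not tested, and Il5 passed it through the DNP samples alone, so that 4 of the 5 genes were tested.

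**Figure D1:**
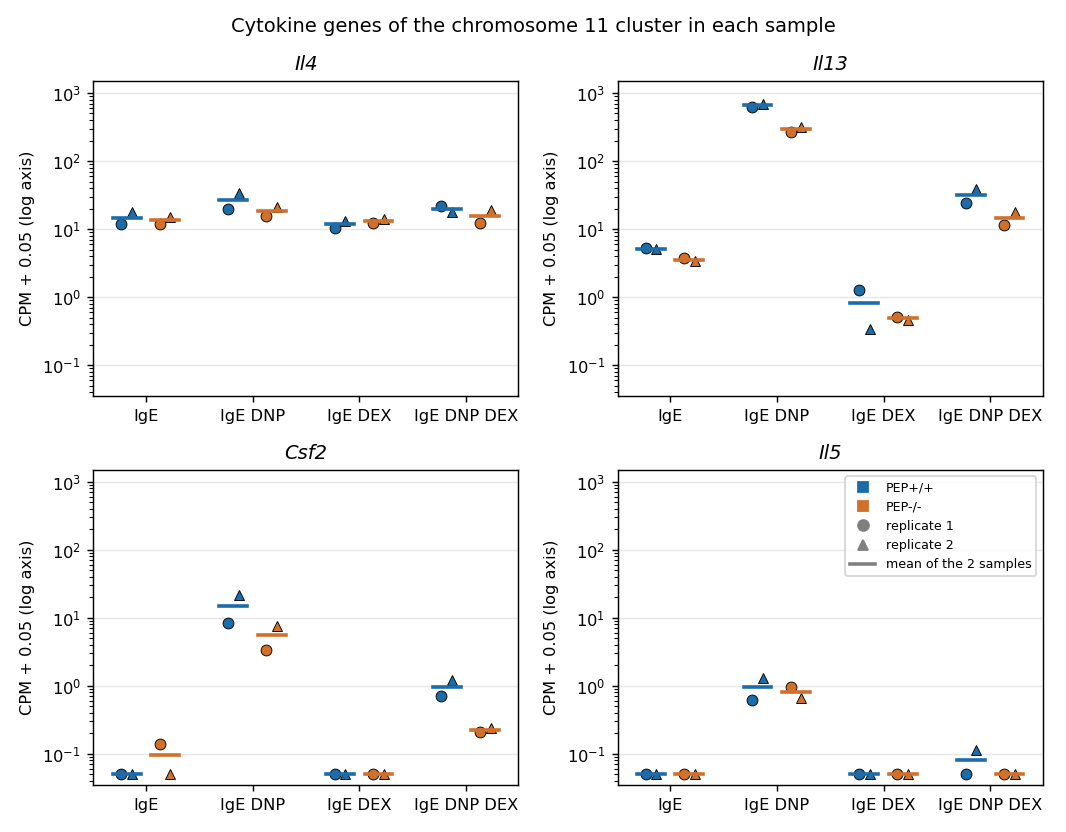
Levels of Il4, Il13, Csf2 and Il5 in each of the 16 samples, as CPM plus 0.05 on a log axis, by treatment; colours give the genotype, symbols the replicate and bars the mean of 2 samples. Il13 spans from 0.294 to 701 CPM and Il4 from 10.4 to 34.0 CPM, while Csf2 and Il5 have reads mainly after DNP.

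The first comparison asked what 1 h of antigen did to IgE-loaded cells. Il13 and Csf2 rose in both genotypes, against 4.01% of all 13305 genes called higher in PEP+/+ and 4.69% in PEP-/-. Genes called lower made up 1.89% and 2.53% (edgeR's quasi-likelihood test, Benjamini-Hochberg adjusted p under 0.05). Il13 had a log2 fold change of 7.02 ± 0.49 (SE, edgeR, adjusted p = 1.63e-05) in wild-type cells, and the value in PEP-/- cells was 6.38 ± 0.48 (adjusted p = 1.89e-05). In same-numbered samples the Il13 level after DNP was 121 and 139 times that after IgE in PEP+/+ and 71.3 and 96.3 times in PEP-/-.

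Csf2 passed the test in each genotype, with edgeR's adjusted p at 0.00217 for PEP+/+ and 0.00532 for PEP-/-. Since both PEP+/+ IgE samples had 0 counts, its rise there was at least 119-fold (3 counts over the group as floor). In PEP-/- the ratio was 179, with a 95% counting interval of 31.8 to 7125, because the IgE samples held 1 count in all, and without PEP-/- IgE replicate 2 the adjusted p was 0.0618. Csf2 reached the filter's minimum count in both replicates of a condition only after DNP, and without the filter on low counts it was called in both genotypes too (adjusted p = 1.63e-20 and 1.60e-13), where 3.17% and 3.66% of genes were called higher.

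Il5 was at least 7.32-fold higher after DNP in PEP+/+ and at least 7.35-fold in PEP-/-, with adjusted p = 0.0620 and 0.0528 (edgeR). With the replicate as a block, which the samples' numbers called for, these were 0.0105 and 0.00711. Since Il5 had entered that test through the DNP samples in which it was high, these values do not support a rise. Without the filter on low counts the adjusted p was 0.0252 and 0.0201. The block without the filter, a setting chosen after seeing the data, gave 0.00371 and 0.00206, where 6.59% and 7.96% of genes were called higher. For Il3 the lower bounds were 2.15-fold and 2.00-fold, with no test.

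The response of Il4 differed in size from that of its neighbour Il13. Its log2 fold change after DNP was 0.87 ± 0.33 (SE, edgeR, adjusted p = 0.189) in wild-type cells, and PEP-/- cells had 0.46 ± 0.33 (adjusted p = 0.567). The 95% intervals were a 1.08-fold to 3.09-fold higher level in PEP+/+, and 0.814-fold to 2.32-fold in PEP-/-. With the replicate block the rise passed in PEP+/+ (0.85, adjusted p = 0.0109, edgeR) and not in PEP-/- (0.46, adjusted p = 0.140). The block called 11.2% of all genes higher in PEP+/+ and 13.3% in PEP-/-. In each same-numbered pair the Il4 level was higher after DNP, by 1.66 and 1.94 times in PEP+/+ and 1.34 and 1.4 times in PEP-/-. Scaling by total counts in place of TMM put the median of all genes after DNP at -0.35 and -0.32 on the log2 scale. With TMM it was 0.01 and -0.02. Under total counts Il4 stood at 0.51 and 0.14. In GENCODE the Il4 gene runs past the RefSeq 3′ end, with 1227 exon bases against 590 in its coding transcript. Counts were per gene, so reads outside that transcript could not be told apart. Their part in the Il4 values was not tested.

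Dexamethasone without antigen was compared with IgE alone. Il13 fell in both genotypes, against 0.932% of genes called lower in PEP+/+ and 0.985% in PEP-/-. Its log2 fold change was -2.82 ± 0.48 (SE, edgeR, adjusted p = 0.00767) in wild-type cells and -2.95 ± 0.54 (adjusted p = 0.0111) in the mutant, from 41 to 70 counts after IgE to 4 to 19 after DEX. The 4 DEX samples all lay below the 4 IgE samples. In PEP-/- the call was lost whichever of the 4 samples compared was left out, with adjusted p up to 0.118. Il4 had -0.33 ± 0.33 (adjusted p = 0.898) and -0.03 ± 0.33 (adjusted p = 1), with 95% intervals of 0.470-fold to 1.34-fold and 0.578-fold to 1.65-fold. Csf2, Il5 and Il3 had no more than 1 count in either group, so a decrease was not detectable at this depth.

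The effect of dexamethasone on antigen-treated cells was read from IgE DNP DEX against IgE DNP. Il13 and Csf2 fell in both genotypes, against 1.05% of genes called lower in PEP+/+ and 1.19% in PEP-/-. The log2 fold change of Il13 was -4.39 ± 0.42 (SE, edgeR, adjusted p = 0.000174) in wild-type cells and -4.32 ± 0.43 (adjusted p = 0.000205) in the mutant. In same-numbered samples this left 3.93% and 5.47% of the Il13 level in PEP+/+, and 4.26% and 5.64% in PEP-/-. Csf2 had entered this test through its DNP samples, where it was high. Without the filter on low counts it was called lower too (adjusted p = 5.795e-08 and 2.966e-09, edgeR), where 1.62% and 1.44% of genes were called lower. With the filter its values were -3.94 ± 0.75 (adjusted p = 0.0297) and -4.92 ± 0.88 (adjusted p = 0.0235), which left 7.91% and 5.55% in PEP+/+ and 4.77% and 2.49% in PEP-/-. In each genotype the Csf2 call was lost when IgE DNP replicate 2 or either IgE DNP DEX sample was left out, with adjusted p up to 0.2225 in PEP+/+ and 0.1885 in PEP-/-.

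Il5 had 17 counts after DNP and 1 after both agents over the 2 PEP+/+ samples, a ratio of 20.7 with a 95% counting interval of 3.24 to 865. In PEP-/- it had 22 and 0, at least 5.63-fold lower. Its adjusted p was 0.151 and 0.103 (edgeR), and 0.0255 and 0.0167 with the replicate block, which called 9.76% and 9.33% of genes lower, again in a test that Il5 had entered through its DNP samples. Without the filter on low counts it was 0.1497 in PEP+/+ and 0.0499 in PEP-/-, where 1.62% and 1.44% of genes were called lower. With the block and no filter it was 0.0221 and 0.00728, against 5.65% and 6.19%. Il4 had -0.43 ± 0.33 (adjusted p = 0.621) and -0.23 ± 0.33 (adjusted p = 0.903), with 95% intervals of 0.439-fold to 1.25-fold and 0.506-fold to 1.44-fold. These intervals lay above those of Il13, whose upper ends were 0.0940-fold and 0.0989-fold.

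Antigen still raised Il13 in dexamethasone-treated cells. Against IgE DEX, Il13 in IgE DNP DEX had a log2 fold change of 5.45 ± 0.49 (SE, edgeR, adjusted p = 0.000111) in wild-type cells and 5.01 ± 0.52 (adjusted p = 0.000359) in the mutant, in a comparison that called 2.95% and 2.99% of genes higher. Csf2 was at least 13.2-fold higher in PEP+/+ (adjusted p = 0.0326, lost when any of the 4 samples compared or either PEP-/- IgE DNP DEX sample was left out, with adjusted p up to 0.230) and at least 1.67-fold in PEP-/- (adjusted p = 0.2998). Il4 had 0.77 ± 0.33 (adjusted p = 0.271) and 0.26 ± 0.33 (adjusted p = 0.843), and passed in PEP+/+ with the replicate block (0.78, adjusted p = 0.0201, with 11.7% of genes called higher). With TMM left out, Il4 stood at 0.53 in PEP+/+ and at -0.05 in PEP-/-.

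Cells given both agents were also compared with IgE alone. Il13 was 2.63 ± 0.41 higher on the log2 scale in wild-type cells (edgeR, adjusted p = 0.00234) and 2.06 ± 0.41 in the mutant (adjusted p = 0.00925), where 6.1% and 6.3% of genes were called higher. The samples given both held 145 to 614 counts of Il13 and the IgE samples 41 to 70. In PEP-/- the Il13 call was lost without either IgE sample or without IgE DNP DEX replicate 2, with adjusted p up to 0.101. Csf2 was at least 8.49-fold higher in PEP+/+ (adjusted p = 0.0285), a call that was lost when any of the 4 samples compared was left out, with adjusted p up to 0.139. In PEP-/- 4 counts stood against 1 (ratio 5.22, 95% counting interval 0.517 to 257, adjusted p = 0.450).

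**Figure D2:**
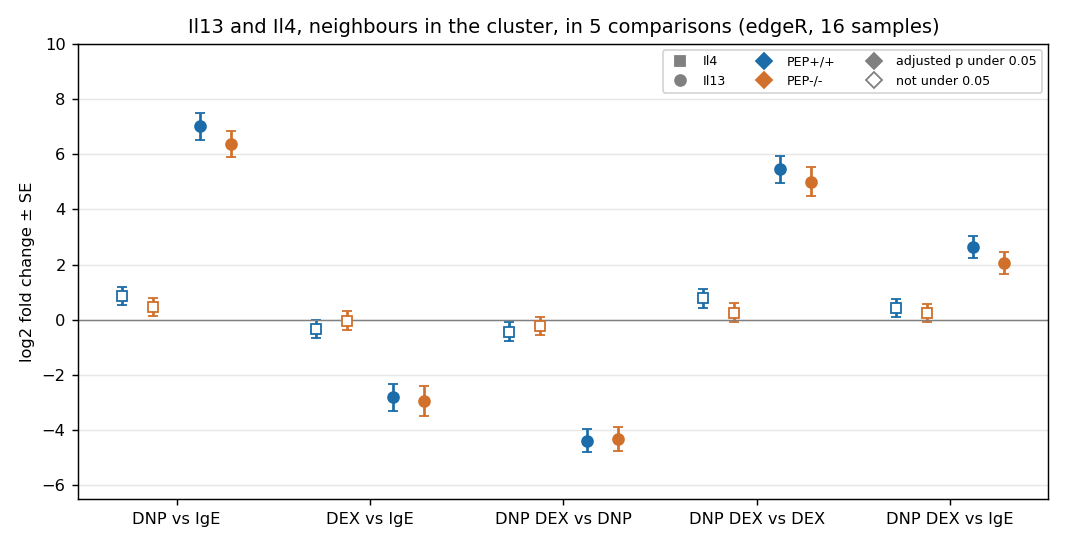
Log2 fold changes of Il13 (circles) and Il4 (squares) with their standard errors in 5 comparisons, by genotype. They came from the fit over 16 samples without the replicate block, and filled symbols have an adjusted p under 0.05. Il13 changed in all 5 comparisons, from -4.39 to 7.02, and Il4 lay between -0.43 and 0.87 with no filled symbol.

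Whether dexamethasone changed the response to antigen itself was tested as the interaction of DNP and DEX. For Il13 the response with dexamethasone minus that without it was -1.57 ± 0.63 (SE) on the log2 scale in PEP+/+ (unadjusted p = 0.0290, adjusted p = 1, edgeR) and -1.37 ± 0.72 in PEP-/- (adjusted p = 1). No gene of the cluster passed, in a test that called 0.015% of all genes lower in PEP+/+ and 0.00752% lower in PEP-/-. DESeq2 called 0 as well, and the count at an unadjusted p under 0.05 was 1 in PEP+/+ and 0 in PEP-/-. The share of all genes at that unadjusted threshold is not given here, so this count supports no conclusion. Only Il4 and Il13 had reads in every condition and so an interpretable value; for Il4 it was -0.10 ± 0.46 and -0.20 ± 0.46.

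The genotypes were compared within each treatment, without the replicate block unless it is named. There 0 of the genes passed, and in each treatment 1 of 13305 genes (0.00752%) was called lower in PEP-/- (edgeR). The log2 differences of Il13 (PEP-/- minus PEP+/+) were -0.54 ± 0.42 after IgE, -1.18 ± 0.37 after DNP, -0.67 ± 0.61 after DEX and -1.11 ± 0.38 after both (adjusted p from 0.717 to 1). After DNP the samples did not overlap, at 266 and 317 CPM against 619.9 and 701 CPM, and the 95% interval ran from 0.243-fold to 0.801-fold. The unadjusted p there was 0.00873, and with the replicate block Il13 passed at 0.0227. Without the filter on low counts it passed at 0.0479, where 0.16% of genes were called lower. Csf2 after DNP had -1.43 ± 0.65 (adjusted p = 1), at 3.28 and 7.65 CPM in PEP-/- against 8.23 and 21.4 CPM in PEP+/+. In same-numbered samples the PEP-/- level of Csf2 was 39.9% and 35.8% of the PEP+/+ level. With the block Csf2 passed at 0.0384 (edgeR), where 1.56% of all genes were called lower. Csf2 had entered that test through its DNP samples, the samples compared here. Without the filter on low counts and without the block it did not pass. With the block and no filter it passed at 0.00105 (edgeR), and the share of all genes called there is not given here. At an unadjusted p under 0.05 the count was 1 after DNP, 2 after both agents (Il13 and Csf2) and 0 after IgE and after DEX. The share of all genes at that threshold is not given here, so these counts do not support a difference. DESeq2 called 0 of the members in each treatment.

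Averaged over the 4 treatments, the log2 difference of Il13 between PEP-/- and PEP+/+ was -0.87 ± 0.23, which is 0.546-fold (95% interval 0.379 to 0.786, adjusted p = 0.0851, edgeR). It passed with the replicate block (-0.86, adjusted p = 0.0103, where 9.64% of genes were called lower) and with DESeq2 (-0.87, adjusted p = 0.00538, where 3.3% were called lower). Without the block edgeR called 1.16% of genes lower, and 1.34% without the filter on low counts, where Il13 passed too (-0.88, adjusted p = 0.000137). Without PEP+/+ IgE DEX replicate 2, which had 7 counts of Il13, the value was -1.07 (adjusted p = 0.0198). Il4 had -0.21 ± 0.16 (adjusted p = 0.653), with differences of -0.14, -0.55, 0.16 and -0.34 in the 4 treatments, none of which was called. The response to DNP was not shown to differ between genotypes: the interaction was -0.64 ± 0.56 for Il13 and -0.41 ± 0.46 for Il4 (adjusted p = 1). The effect of DEX after DNP differed by 0.07 ± 0.53 for Il13, 0.20 ± 0.46 for Il4 and -0.98 ± 1.11 for Csf2 (adjusted p = 1), and the number with an unadjusted p under 0.05 in these interactions was 0, as was DESeq2's count. Both interactions called 0% of all genes lower by adjusted p, and the share at an unadjusted p under 0.05 is not given here.

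The different responses changed which cytokine dominated the reads of the cluster. After IgE, Il4 made up 70.0% to 82.0% of the 171 to 356 counts on the 5 genes, and Il13 18.0% to 30.04%. After DNP, Il13 made up 91.5% to 95.6% of 3489 to 6860 counts, Il4 3.06% to 6.07% and Csf2 1.15% to 2.82%. After DEX the share of Il4 was 89.4% to 97.8% of 142 to 314 counts. After both agents Il4 held 30.9% to 51.7% and Il13 47.8% to 66.8% of 302 to 919 counts. The ranges of the 4 treatments did not overlap for either gene. Per kb of exon, the level of Il13 was 0.223 to 0.437 times that of Il4 after IgE, 15.4 to 31.8 times after DNP, 0.0232 to 0.121 times after DEX and 0.943 to 2.20 times after both. These ratios used all exons of each gene, 1227 bases for Il4 and 1205 for Il13. The coding transcript of Il4 has only 590 bases, and that of Il13 has 1205. With those lengths all ratios would be lower, so which gene led per kb after both agents depends on the length used.

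**Figure D3:**
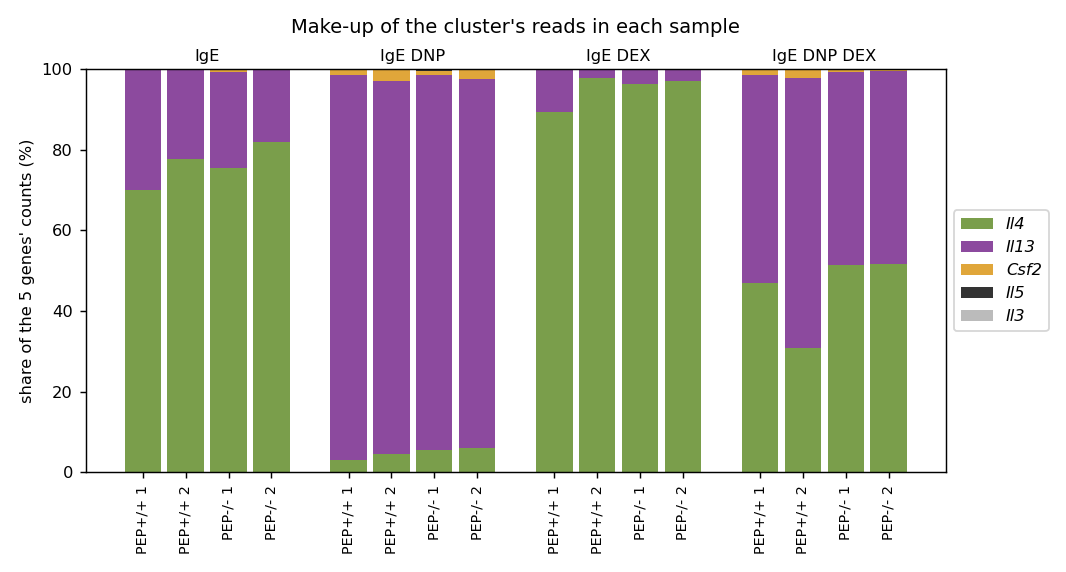
Share (%) of the reads on the 5 genes that fell on each gene, 1 bar for each of the 16 samples, grouped by treatment. Il4 takes 70.0% to 82.0% after IgE and 3.06% to 6.07% after DNP, where Il13 takes 91.5% to 95.6%.

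The other genes of the locus were read for comparison. Of 19 listed neighbours on both sides of and between the members, 12 were tested. After DNP, 1 rose and 1 fell in each genotype, against 4.01% and 4.69% of all genes called higher and 1.89% and 2.53% called lower. The medians were -0.08 in PEP+/+ and -0.19 in PEP-/- against 0.01 and -0.02 over all genes. With the replicate block 1 rose and 3 fell in PEP+/+, and 2 rose and 4 fell in PEP-/-. The block called 11.2% and 13.3% of all genes higher. The share it called lower is not given here, so these counts are a description. The calls named next are without the block. The gene that rose was Fnip1 (1.49 ± 0.25 and 1.32 ± 0.25), which encodes folliculin-interacting protein and lies beyond Il3. Irf1, an interferon-regulatory transcription factor between Il5 and Csf2, fell in both genotypes (-1.35 ± 0.19 and -1.5 ± 0.19). Rad50, the DNA repair gene between Il13 and Il5, had -0.31 and -0.51 and was not called. With dexamethasone after antigen, Kif3a, a kinesin gene before Il4, fell in both genotypes (-0.90 ± 0.22, adjusted p = 0.0493, and -1.08 ± 0.22, adjusted p = 0.0198, edgeR). It did so without antigen too (-0.89 and -1.17), and its levels were 9.89 to 12.0 CPM after IgE and 4.98 to 5.72 CPM after DEX.

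**Figure D4:**
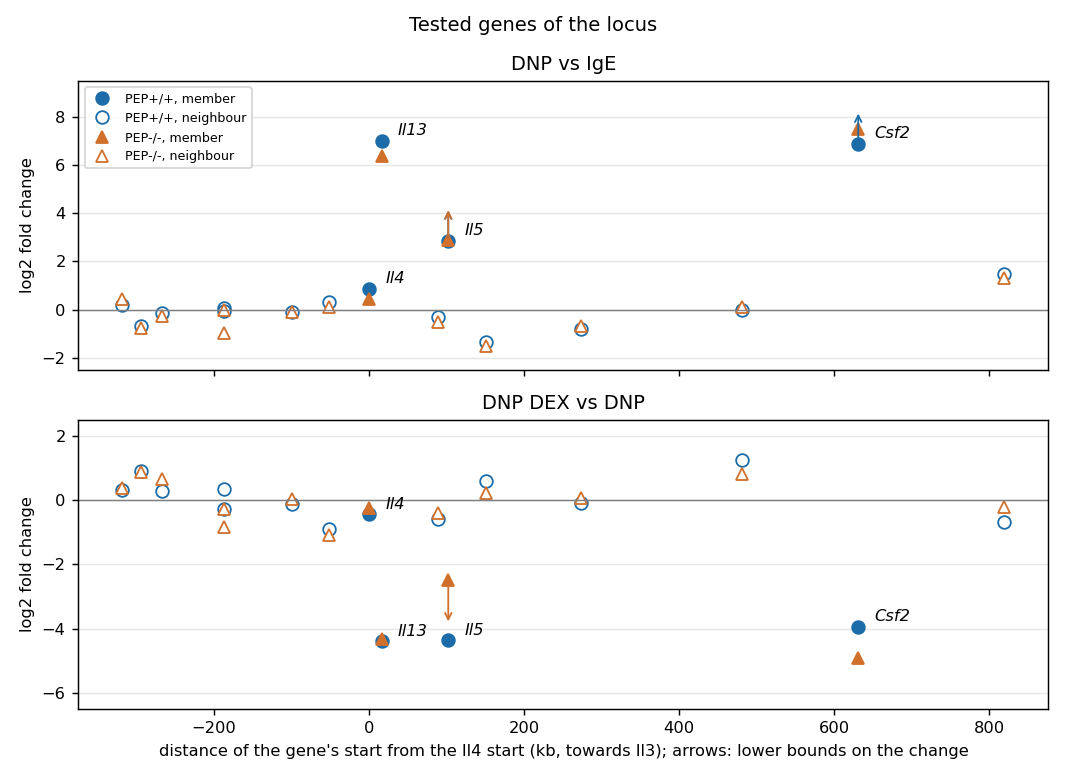
Log2 fold change of the tested genes of the locus after DNP (top) and after DEX on top of DNP (bottom) against the distance (kb) of each gene's start from that of Il4; filled symbols are the cytokine genes, open ones the neighbours, arrows mark bounds where a group had 0 counts, and Csf2 in PEP-/- (top) and Il5 in PEP+/+ (bottom) are ratios of counts. Il13, Il5 and Csf2 stand far from 0 in both panels, while Il4 lies at 0.87 (top) and -0.43 (bottom) in PEP+/+.

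Among 30 transcription factor genes known to act on the cluster, 29 were tested and Tbx21, which opposes type 2 cytokines in T cells, was at 0 in every sample. This list was chosen with earlier results of these data known, so its counts are a description. After DNP 12 rose and 1 fell in PEP+/+, and 14 rose and 1 fell in PEP-/-, against 4.01% and 4.69% of all genes called higher and 1.89% and 2.53% called lower. The median log2 fold changes of the list were 1.5 and 1.57, and those of all genes 0.01 and -0.02. The genes that rose in both were Fos, Fosb, Fosl1, Jun, Junb and Jund of the AP-1 family, Egr1 and Egr2, Nfatc1, the NF-kB genes Nfkb1 and Rela, and Bcl6, joined in PEP-/- by Egr3 and Ets1. Egr2 went from 0.411 to 0.882 CPM after IgE to 44.5 to 63.5 CPM after DNP, with log2 fold changes of 6.11 ± 0.49 and 6.61 ± 0.51. Fosb rose by 7.10 ± 1.03 and 8.10 ± 1.09, and Fosl1 by 5.59 ± 0.82 and 4.55 ± 0.75. Nfatc1, which encodes the calcium-driven factor NFAT2, rose from 71.5 to 109 CPM to 508 to 606 CPM. Maf, which encodes an activator of Il4 in T cells, was the gene that fell in both genotypes (-1.24 ± 0.22 and -1.51 ± 0.22). Gata2, a GATA factor of mast cells, was between 754 and 1172 CPM.

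Dexamethasone on top of antigen was read next, in a comparison that called 1.05% and 1.19% of all genes lower. In PEP+/+ 1 of these factors fell, Runx1 (-0.97 ± 0.23, adjusted p = 0.0483, edgeR), and in PEP-/- 0 were called, with medians of -0.28 and -0.31. The replicate block called 7 lower in PEP+/+ and 8 lower in PEP-/-, against 9.76% and 9.33% of all genes lower. In cells given both agents Egr2 stood at 28.5 to 35.0 CPM and Nfatc1 at 234 to 346 CPM. Against IgE alone, 12 were higher in PEP+/+ and 14 in PEP-/-, against 6.1% and 6.3% of all genes, in the comparison in which Il13 stood at 2.63 and 2.06. Maf was 0.69 ± 0.11 higher in PEP-/- averaged over the treatments (adjusted p = 0.0128, edgeR). It was the only one of the 29 called in that average without the replicate block, and the block called 5 higher. The share of all genes called higher in that average is not given here, with or without the block, so these counts are a description.

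Of 13 genes for the receptors of these cytokines and their kinases, 11 were tested, and the receptor genes Il13ra1 and Il13ra2 were at 0 in all samples. Csf2rb, the signalling chain shared by the receptors for IL3, IL5 and GM-CSF, was at 2307 to 4010 CPM and had a log2 fold change of 0.06 ± 0.23 after DNP in both genotypes (adjusted p = 0.980 and 0.970, edgeR). Il4ra, which binds IL4 and forms the IL13 receptor with Il13ra1, had 1090 to 1292 CPM after IgE and 683 to 863 CPM after DNP, and passed with the replicate block only (-0.63 and -0.61, adjusted p = 0.00587 and 0.00564). Jak2, the kinase of the Csf2rb chain, rose after DNP by 1.82 ± 0.31 and 1.48 ± 0.31. Il2rg, the common gamma chain that pairs with Il4ra, rose by 1.22 ± 0.26 and 1.04 ± 0.26. Jak1 rose with both agents against IgE alone by 1.73 ± 0.20 and 1.67 ± 0.20, from 243 to 302 CPM to 771 to 1041 CPM, and it was the one gene of the list called higher when dexamethasone was added to antigen (1.18 ± 0.20 and 0.89 ± 0.20), where 1.98% and 2.09% of all genes were called higher.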

How the data were processed

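RNA-seq gene counts of 16 BMMC samples were analysed, 2 for each of 8 conditions (genotype by treatment, grouped by the labels). The authors made paired reads of 50 bases from a stranded mRNA kit, and the submitters' processing notes name bcl2fastq, TopHat2, HTSeq, DESeq2 and GRCm38. The deposited values are raw HTSeq counts per gene, not normalized, and the strand setting is not given in the sources used here, so reads of the antisense genes that overlap Csf2 and Il5 cannot be told apart without it. Rows naming no gene held 29.1% to 49.6% of all counts and were left out. Of 39179 genes, 37607 were named by GENCODE M21.

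Counts were tested with edgeR 4.0.16 (quasi-likelihood, TMM, filterByExpr with a minimum count of 10, R 4.3.3) in 1 fit of all 16 samples with 8 condition means and 8 residual degrees of freedom. Called means a Benjamini-Hochberg adjusted p under 0.05 over the 13305 genes tested, two-sided. Fold changes are on edgeR's log2 scale. The code was tested on simulated data. Alternatives were DESeq2 1.42.0, other scalings, no filter, only the conditions compared, leaving out each sample, and the replicate as a block. The labels number 1 series of samples and letter the other. Deviations of same-numbered samples from their condition means correlated in all 28 pairs of conditions (r from 0.454 to 0.835), so the numbers pair the samples. The main fit did not use this pairing. Results with the block are given beside it where the block changed the call of a member. Members and gene lists were chosen with earlier results of these data known. Named were all members, Ptpn22, up to 4 called genes of each list with the largest change, and the 3 genes most correlated with each member; Rad50, Gata2, Nfatc1, Csf2rb, Il4ra and the full set of called transcription factors were added after their values were seen. Sequences came from RefSeq (GRCm38.p6) and GENCODE M21; the 3′ UTR of Il4 is not reported here. Intervals are at 95%.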

Additional observations from a re-analysis of the deposited data

How the results depend on the processing

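The replicate block raised the number of members called to 4 for DNP against IgE in PEP+/+ (2 without it), to 2 between genotypes after DNP (0 without it) and to 1 for the genotype average (0 without it). It raised the number from 2 to 3 for DNP against IgE in PEP-/-, for both agents against DNP in both genotypes and for both against DEX in PEP+/+, and it changed no other call of a member. Without the filter on low counts 3 members were called for DNP against IgE in both genotypes and for both agents against DNP in PEP-/- (2 with it, and Il5 was the one gained), 1 was called between genotypes after DNP and 1 in the average, and DESeq2 called 1 in the average. With only the conditions compared in the fit, 1 was called for DNP against IgE, for both agents against DEX and for both against IgE in PEP+/+, and 0 for DEX against IgE; in PEP-/- 1 was called for both agents against DNP, and 0 for DEX against IgE, both against DEX and both against IgE. Those fits had fewer samples, and the share of all genes called in them is not given here. Nor is it given for the fits that left out 1 sample. Whether the lower counts are particular to the members was therefore not tested. Leaving out 1 sample at a time gave 0 to 1 members for DEX against IgE and for both agents against IgE in PEP-/- and for the genotype average, and 1 to 2 for DNP against IgE in PEP-/-, for both agents against DNP in both genotypes, and for both agents against DEX and against IgE in PEP+/+. Il13 kept its calls under each of these omissions for DNP against IgE, both agents against DNP and both against DEX.

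Directions turned for small, uncalled values. Scaling by total counts gave Il4 0.02 for the interaction in PEP+/+, -0.05 for both agents against DEX and -0.17 for both against IgE in PEP-/-, and gave Il13 -0.05 for the difference between genotypes in the effect of DEX after DNP. Leaving out a sample gave Il13 between genotypes -1.46 to 0.58 after DEX and -0.33 to 0.42 for that difference. For Il4 it gave -0.19 to 0.16 (DEX against IgE, PEP-/-), -0.09 to 0.59 (both against DEX, PEP-/-), -0.74 to 0.04 and -0.60 to 0.08 (both against DNP, PEP+/+ and PEP-/-), -0.14 to 0.54 (both against IgE, PEP-/-), -0.38 to 0.16 (genotypes after IgE), -0.40 to 0.38 and -0.56 to 0.13 (interaction, PEP+/+ and PEP-/-), -0.26 to 0.51 (genotype by DEX after DNP) and -0.71 to 0.06 (genotype by DNP). Il5 between genotypes after DNP ranged from -0.70 to 0.42. Except where the text names it, the cause was not tested. Over all omissions 889 of 939 values kept their direction and side of the threshold. Depth limited Il3 and Il5, for which DESeq2 gave no adjusted p in most comparisons.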

Other observations

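Cytokine genes outside the cluster were read as a list. It was chosen with earlier results of these data known, so its counts are a description. Of 14 listed mast cell cytokine genes 12 were tested. After DNP 9 rose in PEP+/+ and 8 in PEP-/-, against 4.01% and 4.69% of all genes called higher, with 0 called lower and median log2 fold changes of 4.08 and 4.30 against 0.01 and -0.02 over all genes. Tnf, the gene of tumour necrosis factor, rose from 0.566 to 1.82 CPM after IgE to 156 to 464 CPM after DNP (8.01 ± 0.38 and 7.97 ± 0.39, SE). Il33, the gene of an alarmin that acts on mast cells, had 0 or 1 count in each IgE sample and 85 to 360 counts after DNP. Il1a, the gene of interleukin 1 alpha, rose by 6.4 ± 0.74 and 6.19 ± 0.73, and Il6, which encodes an acute-phase cytokine, by 4.4 ± 0.26 and 3.98 ± 0.26.

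When dexamethasone was added to antigen, 5 of these 12 fell and 0 rose in each genotype, against 1.05% and 1.19% of all genes called lower, with medians of -3.00 and -2.64. Il1a, Tnf, Il6 and Osm fell in both. Dexamethasone without antigen called 0 of the 12 lower in either genotype (edgeR), where 0.932% and 0.985% of all genes were called lower. The replicate block called 1 of them higher in PEP+/+ and 1 lower in PEP-/-. The share of all genes that the block called in this comparison is not given here. The interaction of antigen and dexamethasone called 2 of the 12 in PEP+/+, Tnf (-3.85) and Il6 (-2.88), against 0.015% of all genes called lower. Averaged over treatments, Tnf (-1.08, adjusted p = 0.0123, edgeR) and Osm (-0.62, adjusted p = 0.0278) were lower in PEP-/-, where 1.16% of all genes were called lower.

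As a description over the 16 samples, which share libraries and conditions, Il13 followed the chemokine gene Ccl7 (Pearson r of log2(CPM + 0.5) 0.985), Il6 (0.973) and Tnfsf9 (0.970). Csf2 followed Il2 (0.965), Fst (0.963) and Rhob (0.960). For Il5 the 3 genes with the highest r were Il2 (0.960), Gzmd (0.935) and Ch25h (0.934). For Il4 they were Psmb6 (0.938), Cox7a2 (0.931) and Aamp (0.924), none of them a cytokine gene. Between members r was 0.931 for Il13 and Csf2, and 0.758 for Il4 and Il13.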
